A study of Mus with 2 samples.

Results

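The genes described here are 10 genes of BMP signalling, namely the ligand genes Bmp2, Bmp4 and Bmp6, the protease gene Bmp1, the antagonist gene Grem1, the receptor genes Bmpr1a and Bmpr2, and the target genes Id1, Id3 and Smad6. They were chosen by name from a family of known function, with earlier results of the same arrays in view, since the signal of Bmp2 was among the largest increases. All values below are therefore descriptions of the comparison that drew attention to them, with no test. The 10 genes are among 20140 genes that the array's probes matched, and 13 of its 39429 probes belonged to them. RNA came from BMDMs, which are macrophages grown from the bone marrow of male C57BL6/J mice, 10 weeks old, with M-CSF for 7 d. Both cultures were then kept for 24 h under M2 conditions, that is with 10 ng/mL of the cytokine IL-4. One culture received 10 µM GW4064, a synthetic agonist of the nuclear receptor FXR, and the other received its solvent DMSO. The free-text note on the GW4064 sample names DMSO, whereas its title, source and treatment labels name GW4064 and were followed, so every direction below rests on those labels. Whether the cultures came from 1 mouse, from several or from a pool is not given in the sources used here. Each condition had 1 array, so no difference below has a replicate check.

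BMPs are secreted proteins of the TGF-β superfamily. A BMP dimer brings type I and type II receptors together, and the type I receptor then phosphorylates SMAD1, SMAD5 and SMAD9, which enter the nucleus with SMAD4 and switch on genes such as Id1, Id3 and Smad6. Antagonists such as gremlin bind the ligand outside the cell and keep it from its receptors, and the inhibitory SMADs act as feedback inside it. In the bone marrow BMPs are best known from the bone-forming and stromal cells, and macrophages can both make and sense them.

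Of the 10 genes, 7 were well above background on both arrays and could be compared. Bmp2 was 9.24-fold higher and Grem1 4.13-fold lower with GW4064, so that the ligand and its secreted antagonist had opposite directions. The only Bmp2 spot lay where spots with large gaps between the arrays clustered, and without such areas Bmp2 had no value. Over the ways of processing, the log2 difference of Bmp2 lay between 1.66 and 3.25 and that of Grem1 between -2.23 and -1.02. The target genes Id1 and Smad6 and the protease gene Bmp1 were lower by less than 2-fold, and the receptor genes Bmpr1a and Bmpr2 had log2 differences of 0.07 and -0.26, beside scanner software errors of 0.22 and 0.20. Id3 had a large difference that was left out, because its spot on the DMSO array was marked as uneven. Bmp4 and Bmp6 were not well above background on either array. Thus 1 of 7 compared genes was 2-fold or more higher, against a background of 0.851% of the 12575 genes well above background on both arrays, and 1 of 7 was 2-fold or more lower, against 1.30%. With genes seen on 1 array included, these shares were 2.04% and 2.71% of 13530 genes. Counted by probe, the background was 2.15% higher and 2.77% lower. Lower by any size were 5 of 7, against 48.2% of all genes and 48.8% of those on both arrays, and the median log2 difference of the 7 genes was -0.56, against 0.0068 over all genes. These shares describe genes picked with the result known and support nothing about the family.

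**Figure D1:**
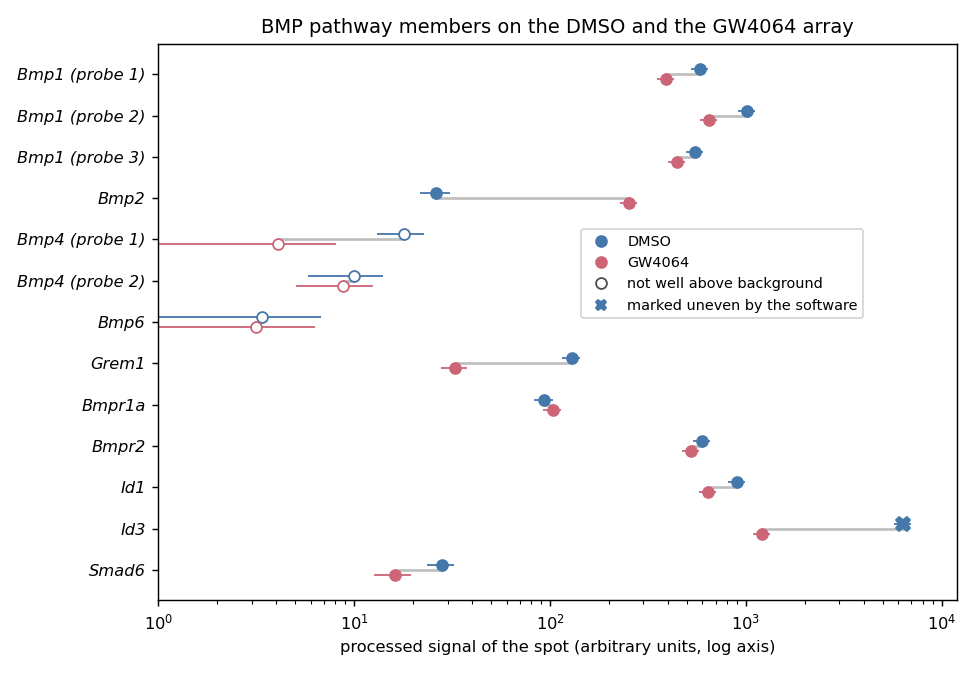
Processed signal (arbitrary units, log axis) of each of the 13 spots of the BMP genes on the DMSO array (blue) and the GW4064 array (red). Bars are the scanner software's error of 1 spot and are clipped where they pass the left edge of the axis, open circles are spots not well above background, and the cross is the Id3 spot marked as uneven. The signals of Bmp2 lie at 26.2 and 254 and those of Grem1 at 129 and 32.7, while those of Bmpr1a and Bmpr2 nearly coincide.

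A signal is the brightness of a spot after background subtraction, and a difference is the log2 of GW4064 over DMSO once the arrays were scaled to a common 75th percentile (signals of 1209 and 1265, respectively). Levels of different probes are not compared. All member probes were printed once, so that no copies of them exist. Among probes printed 10 times, the difference had a median SD over copies of 0.072 at signals of 200 and above, of 0.13 between 50 and 200, of 0.28 between 15 and 50 and of 0.34 below 15. This is spread within the slide and not between cultures. Among 43020 spots, an 8-fold or greater gap between DMSO and GW4064 was found for 577, 217 of them brighter with GW4064 and 360 brighter with DMSO. Spots with 2 or more other such spots within 300 µm made up 16.5% of all spots and are called clustered areas below. They held 4 of the 13 member spots, those of Bmp2, Id3 and both probes of Bmp4. Median differences around a spot are taken over all spots there, dim ones included. Without a filter on dim probes the median difference over all probes was -0.076, against 0.015 over the measured probes. With control RNA added to both samples (spike-in) as the reference for scaling instead, all genes had a median difference of -0.18, and 29.7% of the probes 2-fold or more apart were higher, against 43.6%.

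Bmp2 encodes bone morphogenetic protein 2, a ligand that drives bone formation. Its single probe, matched to NM_007553, had a signal of 26.2 ± 4.59 with DMSO and 254 ± 25.6 with GW4064, the error being that of the scanner software for 1 spot. The log2 difference was 3.21, with a software error of 0.29, and it ranked 7th among the increases of 21707 probes detected above background in both conditions. The dim array was thus above background, so that the value is a measured difference and not a bound. The spot lay in a clustered area. The 2 spots within 300 µm that differed 8-fold or more were both brighter with DMSO, the direction opposite to Bmp2. Within 1000 µm, 44 such spots were brighter with DMSO and 3 with GW4064. The median difference over all 57 spots within 300 µm was -0.069. Median pixel intensity, which a few bright pixels do not move, was 62 with DMSO over a local background of 16, and 300 with GW4064 over a local background of 20. From these intensities the log2 difference was 2.52, an alternative added after the values were seen. The normexp method of correcting for background (offset 50), run on these intensities, draws dim signals together and gave 1.66. Without the clustered areas Bmp2 had no value, and the part of the slide surface in its difference was not tested.

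Bmp4 and Bmp6 encode ligands of the same family, BMP4 being the closest relative of BMP2 and BMP6 being known as a regulator of hepcidin and iron. The probes of Bmp4, both matched to NM_007554, had signals of 18.0 and 9.94 with DMSO and of 4.06 and 8.79 with GW4064. None of these signals was well above background, and both spots lay in clustered areas, so no difference was given. The probe of Bmp6, matched to NM_007556, had signals of 3.39 and 3.16, each as large as its own software error of 3.39 and 3.14. Its spot had 0 spots differing 8-fold or more within 1000 µm.

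Bmp1 carries the name of the family for historical reasons and encodes a metalloprotease that trims procollagens and the BMP antagonist chordin. It was the only member measured by several probes. The first, matched to NR_033241, had a signal of 584 with DMSO and 389 with GW4064, a log2 difference of -0.65. The other two, matched to NM_009755, had 1017 and 651 (-0.71), and 549 and 443 (-0.38). All 3 probes were lower with GW4064, with a mean of -0.58 ± 0.18 (SD over the 3 probes), or 1.49-fold lower. The software error was 0.20 for each probe and the SD over copies at such signals 0.072. None of the 3 spots lay in a clustered area. Over all ways of processing the mean lay between -0.77 and -0.55.

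Grem1 encodes gremlin, a secreted antagonist that binds BMP2 and BMP4 and is made chiefly by stromal cells. Its probe, matched to NM_011824, had a signal of 129 ± 13.5 with DMSO and 32.7 ± 4.96 with GW4064, both well above background. The log2 difference was -2.05, with a software error of 0.27, and ranked 26th among the decreases of probes measured on both arrays. It stood outside the clustered areas, with 0 spots differing 8-fold or more within 1000 µm and a median difference of -0.18 over the 60 spots within 300 µm. Median pixel intensities gave -1.71, normexp run on those intensities -1.02, and spike-in scaling -2.23. Grem1 was 2-fold or more lower in each of the 13 ways of processing that gave it a value.

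**Figure D2:**
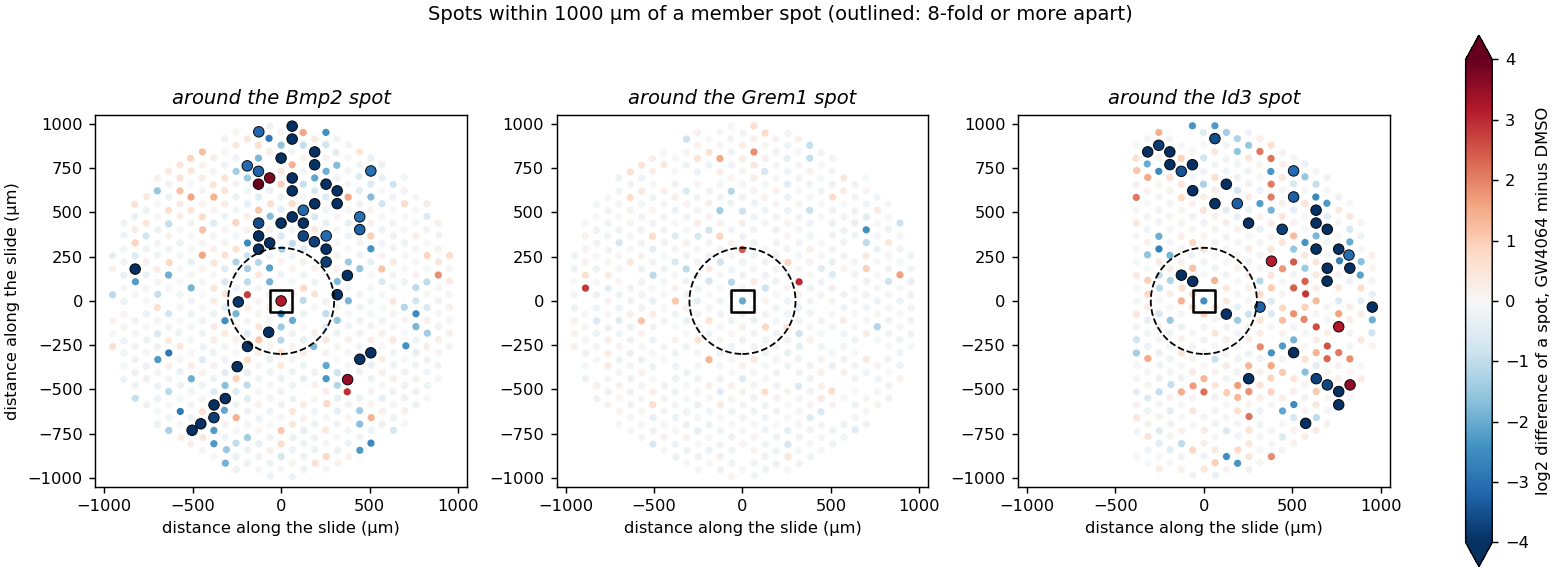
Spots within 1000 µm of the spots of Bmp2, Grem1 and Id3, at their distance in µm from the member spot (square), coloured by log2 difference with red for brighter with GW4064 and blue for brighter with DMSO. Large outlined points differ 8-fold or more and the dashed circle has a radius of 300 µm. The Bmp2 spot is red among mostly blue outlined spots (44 of 47), and the Grem1 spot has no outlined spot around it. The Id3 spot, near the edge of the array, is blue and has 39 outlined spots, 36 of them blue.

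Bmpr1a encodes a type I and Bmpr2 the type II BMP receptor, both of which are found on many cell types. The probe of Bmpr1a had signals of 93.5 ± 10.2 with DMSO and 103 ± 11.0 with GW4064, a log2 difference of 0.074 that was smaller than its software error. That of Bmpr2 had 600 ± 60.1 and 524 ± 52.6, a log2 difference of -0.26. The difference of Bmpr1a was also smaller than the SD over copies at that signal, 0.13, and spike-in scaling turned it to -0.11. The 58 spots within 300 µm of the Bmpr2 spot, dim ones included, had a median difference of -0.22. Whether a local shift had a part in the value of Bmpr2 was not tested. Within 1000 µm of either receptor spot, 0 spots differed 8-fold or more.

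Among the target genes, Id1 and Id3 encode inhibitors of DNA binding, which pair with basic helix-loop-helix factors and keep them off DNA, and Smad6 encodes an inhibitory SMAD that blocks BMP receptors. Id1 had a signal of 898 ± 89.9 with DMSO and 637 ± 63.8 with GW4064. Its log2 difference of -0.56, or 1.48-fold lower, compares with a software error of 0.20 and an SD over copies of 0.072, and lay between -0.75 and -0.56 over all ways of processing. Smad6 was dim on both arrays, with 27.9 ± 4.28 and 16.1 ± 3.46, the latter just over the lowest signal well above background on the GW4064 array, 15.1. Its log2 difference of -0.86 had a software error of 0.38. It was -0.41 from median pixel intensities and -0.19 with normexp run on those intensities. Neither spot lay in a clustered area.

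Id3 was the member left out of the counts because of its spot. The spot on the GW4064 array had a signal of 1208 ± 121. That on the DMSO array had 6312 ± 631 and was marked by the software as uneven across its pixels, as were 215 spots of that array, 206 of them in clustered areas. With the spot kept, Id3 was 5.47-fold lower with GW4064, a log2 difference of -2.45. The median pixel intensity of the spot was 5763.5 with DMSO and 1318 with GW4064, over local backgrounds of 28 and 25, which gave -2.23. Of the marked spots on the DMSO array, 178 of 215 were lower with GW4064, with a median of -3.83. Of the 59 marked spots with a DMSO signal over 1000, 26 were lower. Among the 37 of them with a signal over 1000 on both arrays the median was 0.61 in the other direction. Id3 had the lowest value there, and the next lowest was -0.94. The cut on the GW4064 signal leaves out spots bright with DMSO alone, so this ranking cannot decide the part of the unevenness. Within 300 µm of the Id3 spot 3 spots were 8-fold or more brighter with DMSO and 0 with GW4064, and the median over the 58 spots there was 0.022. Within 1000 µm, 36 such spots were brighter with DMSO, the direction of Id3 itself, and 3 with GW4064. The part of the unevenness in the value of Id3 was not tested.

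**Figure D3:**
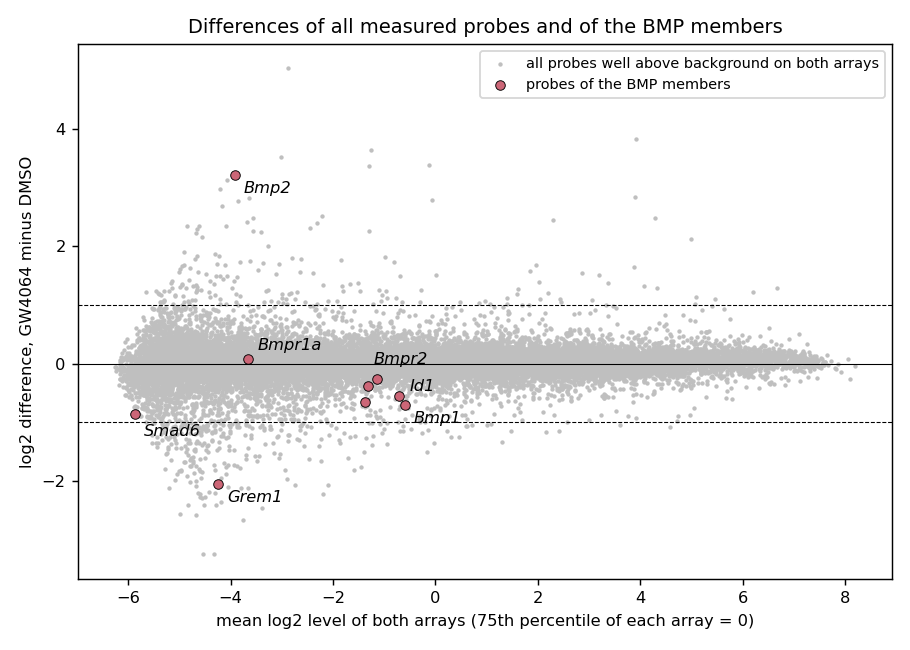
Log2 difference (GW4064 minus DMSO) against the mean log2 level of both arrays (75th percentile = 0) for the 21707 probes well above background on both, with the probes of the BMP genes in red. Dashed lines mark 2-fold. Bmp2 at 3.21 and Grem1 at -2.05 lie beyond the lines, at low levels where the grey cloud is widest, and the other member probes lie between them.

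The other genes of the pathway were taken as 5 lists of 81 genes in all, of which 58 had a probe well above background on at least 1 array. Beyond 2-fold lay 2 genes that were higher and 4 that were lower, or 0 and 1 with normexp. The median log2 difference of the 58 genes was -0.055. A gene seen on 1 array only could come out in 1 direction only, or at 0, so the 49 genes seen on both arrays are the fairer count. Of these 1 was 2-fold or more higher, against 0.851% of all such genes, and 2 were lower, against 1.30%.

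Antagonists and other modulators outside the cell held most of these differences. Of 12 measured genes 9 were lower, with a median of -0.28, and of the 10 genes seen on both arrays 7 were lower, with a median of -0.26. Over all genes the shares lower were 48.2% and, on both arrays, 48.8%. Fstl1, a secreted follistatin-like glycoprotein, had signals of 1170 with DMSO and 549 with GW4064, a log2 difference of -1.16, and Nbl1, an antagonist of the same family as gremlin, had 327 and 163, or -1.07. After the normexp correction Nbl1 was at -0.79 and Fstl1 at -1.11. Fst, which encodes the activin and BMP binder follistatin, was at least 2.29-fold lower, from a signal of 33.9 to one of 15.5 that was not well above background. It was measured through the DMSO array alone, so it could not come out higher, and it was at -0.58 after normexp. The spots of Fst and Fstl1 had 0 spots differing 8-fold or more within 300 µm, and that of Nbl1 had 1. Crim1, a membrane protein that binds BMPs, went the other way, from 90.7 to 198, a difference of 1.06 (log2) that was 0.88 under spike-in scaling and 0.64 after normexp. Among the brightest of the list, Pcolce, which enhances procollagen cleavage by the product of Bmp1, was at -0.65, and Twsg1, twisted gastrulation, at -0.048. The antagonist genes Nog and Chrd were at -0.30 and 0.34, the latter in a clustered area.

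Of the other BMP and GDF genes, 8 of 16 were measured. This list follows family names, so a gene in it need not act through the BMP receptors. Bmp5 was at least 2.74-fold lower, from a signal of 39.6 to one not well above background. It was seen on the DMSO array alone and could not come out higher. Gdf5 was at least 2.02-fold higher on 1 probe in a clustered area, while the second probe could not be told from background. The first Gdf5 probe was seen on the GW4064 array alone and could not come out lower. After normexp Bmp5 was at -0.61 and Gdf5 at 0.45, both less than 2-fold. The bright GDF genes Gdf3, Gdf9 and Gdf15 were at -0.19, 0.0033 and 0.45. Of the other receptors, 9 of 12 were measured, with values between -0.25 and 0.34. The highest was a bound of Hjv, seen on the GW4064 array alone, in a clustered area, so that it could not come out lower. Of the 8 receptors seen on both arrays the highest was at 0.085. Among them the type I receptors Acvr1 and Acvrl1 were at -0.25 and -0.11 and the co-receptor endoglin, encoded by Eng, at -0.15. The second type I receptor that carries the BMP name, Bmpr1b, was not well above background.

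Of the SMADs and intracellular regulators 17 of 18 were measured, with a range from -0.34 to 0.12. None of them was 2-fold apart (0 of 17), nor were any of the 9 receptors above or of the 12 genes in the target list below. These counts were close to the shares of all genes, 2.04% higher and 2.71% lower. The receptor-activated Smad1 and Smad5 were at -0.046 and -0.042, and Smad7, the inhibitory SMAD related to Smad6, at 0.028. The abundant Fkbp1a, Stub1 and Xiap were at 0.00026, -0.027 and 0.10. Rnf111, brighter than Xiap with DMSO and dimmer with GW4064, was at -0.054. Of the list of other target genes, 12 of 17 were measured. The list also held Tcf3, Tcf4 and Tcf12, genes of partners of the ID proteins that need not be targets. Id2, another member of the ID family, had signals of 16841 and 16477, a log2 difference of -0.097. Id4 was at least 1.70-fold lower, from a signal of 24.5 to one not well above background. Tcf3 and Tcf4, which encode partners of the ID proteins, were at 0.070 and -0.0058. Of the ID genes, Id4 was seen on the DMSO array alone and could not come out higher, and the difference of Id2 was smaller than the software error of 0.20 given for Id1.

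**Figure D4:**
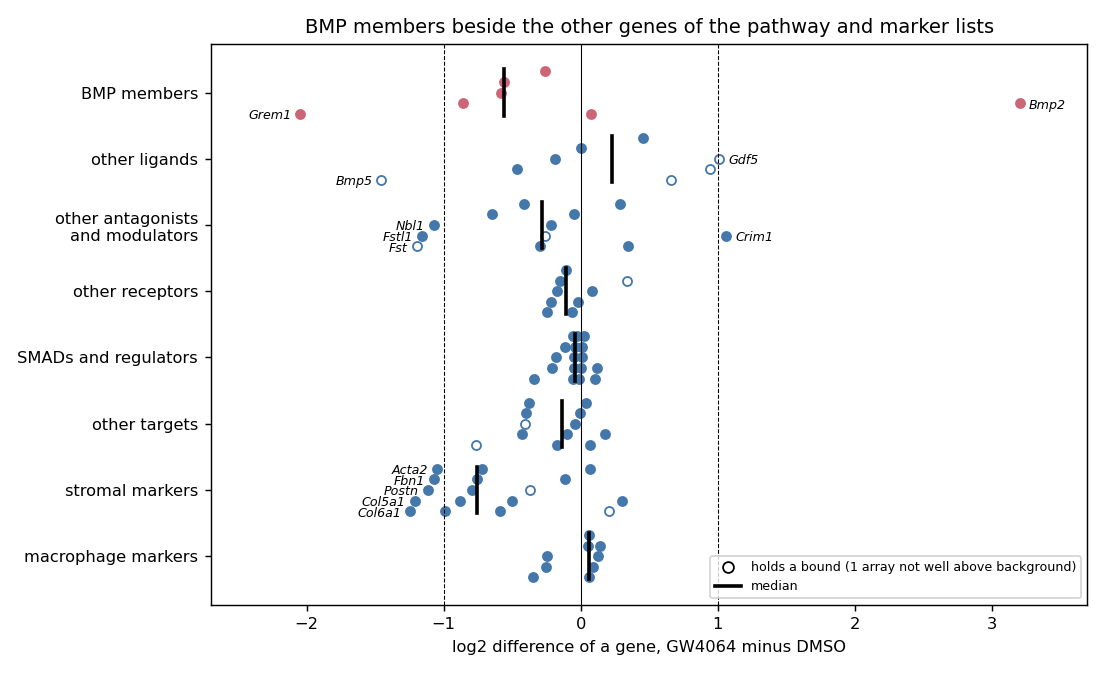
Log2 difference (GW4064 minus DMSO) of each measured gene of the BMP members, the other pathway genes and the stromal and macrophage markers, with the median of each list as a bar. Open circles hold a bound, dashed lines mark 2-fold and genes beyond them are named. SMADs and receptors sit close to 0, antagonists spread to the left, and the stromal markers have a median of -0.76.

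Markers of stromal cells, which make gremlin and many of the proteins outside the cell named above, were lower together. Of 18 stromal markers 17 were measured, 14 were lower and 5 of them 2-fold or more (Col5a1 at -1.21, Col6a1 at -1.25, Postn at -1.11, Fbn1 at -1.07 and Acta2 at -1.05), against 48.2% of all genes lower and 2.71% lower by 2-fold or more. The bright markers Sparc and Col1a2 were at -0.80 and -0.99, and Kitl was at 0.30. Vcam1 was at 0.21, the mean of a probe at -0.18 and a second, in a clustered area, with a bound of 0.60, and was at -0.18 without the clustered areas. Pdgfra, printed 10 times and partly in clustered areas, was at 0.065, and at -0.027 without those areas. It was at -0.19 with marked spots kept and -0.12 under spike-in scaling. Of the lower markers, Acta2 also lay partly in clustered areas and was at -1.05 without them. Col1a1 lay in one and had no value without them. The median of the measured stromal markers was -0.76 and lay between -0.94 and -0.72 over all ways of processing. Summed over the measured probes, the signal was 45176 with DMSO and 25259 with GW4064, a ratio of 0.534 after scaling. Lum was not well above background. In RNA from whole cultures fewer cells of a type and less RNA per cell cannot be told apart. The part of stromal cells in the values of Grem1, Bmp1, Id1, Id3 and the other antagonists was not tested.

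The macrophage markers were present on both arrays, with 9 of 10 matched and all 9 well above background, a median difference of 0.058 and a summed signal of 387090 with DMSO and 367474 with GW4064. Adgre1 was at -0.25, Csf1r at -0.24 and Mrc1 at -0.34. Of the other marker lists, the 7 measured neutrophil genes were lower, against 48.8% of all genes seen on both arrays. Of these 7, 0 were 2-fold or more lower. Their median was -0.79 and their ratio of summed signals 0.619, with S100a9 giving 8136 of 13970 with DMSO. Bright ones were S100a9 at -0.88, S100a8 at -0.45 and Elane at -0.34. The 8 measured endothelial genes had a median of -0.17, and Vwf, Kdr and Egfl7 were at -0.13, -0.033 and 0.61, with Tek and Tie1 not well above background. The 5 measured osteoblast genes had a median of 0.13, but 2 of them were seen on the GW4064 array alone and could not come out lower, and the 3 seen on both arrays had a median of -0.40, with 2 lower. Among these Spp1, Col1a1 and Runx2 were at 0.46, -0.72 and -0.40. The listed osteoblast markers Sp7 and Dmp1 were not well above background. The part of these cells in the values of the BMP genes was not tested.

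**Figure D5:**
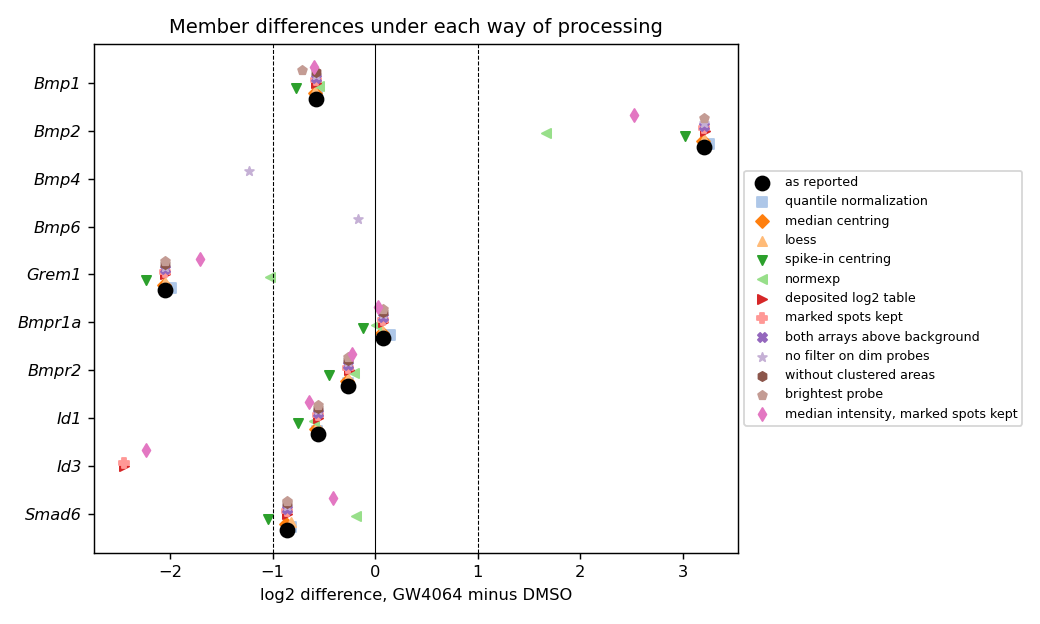
Log2 difference (GW4064 minus DMSO) of each BMP gene under each way of processing, with the reported value in black. Dashed lines mark 2-fold. Bmp2 lies between 1.66 and 3.25 and Grem1 between -2.23 and -1.02, Id3 has a value only where marked spots are kept or the deposited table is used, and Bmpr1a lies on both sides of 0.

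Across the ways of processing the directions of 6 of the 7 compared genes did not change, the exception being Bmpr1a. Bmp2 ranged from 1.66 to 3.25 over the 12 ways that gave it a value, Grem1 from -2.23 to -1.02, Smad6 from -1.05 to -0.19 and Bmpr2 from -0.45 to -0.21. Id3 lay between -2.45 and -2.23 in the 3 ways that measured it. Bmp4 and Bmp6 had a value only where dim probes were kept, at -1.23 and -0.17.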

How the data were processed

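The authors deposited a Feature Extraction 10.7.1.1 file (version from the submitters' processing notes) per 1-colour Agilent array, holding background-subtracted and detrended spot intensity values, and a log2 table of both arrays whose scaling and centring are not given in the sources used here. The arrays shared 1 slide and 1 scan. For all 39200 probes with an unmarked spot on both arrays, the columns of that table were compared with the scaled log2 signals computed here. Before any bound was set, the differences were equal within 0.001 after a constant of 0.0022. The bounds reported for probes seen on 1 array differ from that table, as for Bmp5, at -1.46 here and -3.40 there. The column medians were 0.035 and -0.051, and the baseline of each probe is unknown.

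From the intensities, log2 signal minus each array's 75th percentile over non-control spots was computed. Spots marked as uneven or as outliers among copies were left out, and 0 spots were saturated. Spots of a probe were averaged, and a gene's value is the mean over those of its probes that passed the background filter in either condition. A probe well above background on 1 array only was set, on the other, to the higher of its own signal and the lowest signal well above background there (15.7 for DMSO, 15.1 for GW4064), which gives an "at least" fold. That fold is a lower limit for this processing only, and normexp gave smaller differences for Bmp5, Fst and Gdf5. Symbols came from RefSeq transcripts of GRCm38.p6, matched without versions for 26575 of 39429 probes. The array design uses another build, so no coordinates are given.

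The genes and lists were chosen with earlier results of these data known, and 1 gene of the pathway lists is not reported here. Genes named from the 5 pathway and 5 marker lists were those 2-fold or more apart and the 3 with the highest signal. Further genes named (Nog, Chrd, Smad1, Smad5, Smad7, Rnf111, Id4, Tcf12, Bmpr1b, Hjv, Pdgfra, Kitl and Vcam1) were added after their values were seen. No test was possible with a single array of each condition, and precision is limited by that number. Alternatives were quantile, median, loess (span 0.3) and spike-in scaling, normexp (offset 50), the deposited table, marked spots kept, other filters on dim probes, no clustered areas, the brightest probe, and thresholds of 1.5-fold and 4-fold. Calculations were tested on simulated data. Normexp was run on median pixel intensities and not on the processed signal, in limma 3.58.1 under R 4.3.3. Loess was run in statsmodels 0.14.6, and all else in Python 3.11.15 with pandas 2.3.3, scipy 1.17.1, numpy 2.4.6 and, for the plots, matplotlib 3.10.9. The files used here hold no probe sequences, and none are printed.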

Additional observations from a re-analysis of the deposited data

Results flagged for a closer look

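The signal of Id3 on the DMSO array, 6312, belongs to a spot that the scanner software marked as uneven, so it took no part in the comparison. It stood out as a strong signal in data left aside. The spot on the GW4064 array was not marked and had a signal of 1208. The deposited log2 table keeps the probe, with a difference of -2.45.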

How the results depend on the processing

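No paired analysis was possible because only 1 array was made for DMSO and 1 for GW4064. The only member 2-fold or more higher was Bmp2. Without the clustered areas the count was 0, since its only spot lies in one, and it was 1 in every other way of processing. The count of members 2-fold or more lower was 1 (Grem1). It was 2 with spike-in centring and with a 1.5-fold threshold (Grem1 and Smad6), with marked spots kept, with the deposited table and with median intensities (Grem1 and Id3), and without a filter on dim probes (Bmp4 and Grem1). Over all probes, 510 were 2-fold or more higher and 659 lower. These became 112 and 120 with normexp, 178 and 278 with both arrays above background, 1637 and 1664 without a filter, 277 and 338 without the clustered areas, 1117 and 1318 at 1.5-fold, and 118 and 156 at 4-fold, and 930 and 946 with the deposited table. Low signal left Bmp4 and Bmp6 without a value, and among the compared genes it limits Bmp2, Grem1 and Smad6 most, whose dimmer arrays had signals of 26.2, 32.7 and 16.1 against lowest signals well above background of 15.7 and 15.1. Where no cause is named, the cause was not tested.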
